A study of Caenorhabditis elegans with 16 samples.

Results

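The nlp genes of Caenorhabditis elegans encode neuropeptide-like proteins, precursors of small secreted peptides. Members were found by matching the gene identifiers of the count table to the WBcel235 annotation and keeping every gene whose symbol is nlp- followed by a number. That gave 71 of the 21882 genes in the table. They lie on chromosomes I (7 genes), II (10), III (7), IV (10), V (18) and X (19). The libraries are polyA RNA of whole wild-type worms of the N2 Bristol strain, 4 libraries in each of 4 groups: day 8 adults after a 6 h fast, day 8 adults with food at will, young adults after the same fast and young adults with food at will. Strain and wild-type genotype are shared by all groups. The question set by the design is which genes respond to the fast in young but not in aged animals.

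Neuropeptide precursors are cut by proprotein convertases, trimmed by a carboxypeptidase and often amidated at the C-terminus while they are packed into dense core vesicles. Once released, most of the peptides act on G protein-coupled receptors of other cells, and in worms they adjust feeding, locomotion, egg laying, defecation and sleep. Not every nlp gene is neuronal. The YGGW-type group, nlp-24 to nlp-34, includes genes expressed in the epidermis, and nlp-29 and its neighbours are known as antimicrobial peptide genes that are switched on by fungal infection and wounding. The worms were sequenced whole, so fewer cells of a type and less RNA per cell cannot be told apart.

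Levels are given as CPM, counts per 1000000 (1 M) counts of a library after scaling by the trimmed mean of M values (TMM). Library totals were 65.2 to 75.4 M counts in day 8 fasted, 80.7 to 117.7 M in day 8 fed, 58.4 to 78.4 M in young fasted and 76.9 to 90.4 M in young fed worms. Day 8 libraries 3 and 4 of both feeding states stood apart from libraries 1 and 2, with 20363 to 20764 genes above 0 against 18993 to 19300. Of the 68 nlp genes that passed the low-count filter, 26 were higher in libraries 3 and 4 than in libraries 1 and 2 of day 8 without overlap and 5 were lower, against 28.4% and 28.9% of all tested genes. All young libraries occupied 1 column of sample wells and all day 8 libraries another, so this and age cannot be told apart. In both columns the fed libraries were in rows A to D and the fasted libraries in rows E to H. Row and feeding cannot be told apart either. The labels do not say whether libraries came from separate cultures, so p-values measure the spread between these libraries.

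Fasting raised most nlp genes in young adults. In edgeR's quasi-likelihood test with Benjamini-Hochberg adjustment over 17844 genes, 44 of the 68 tested members rose in fasted worms, 5 fell and 19 did not reach an adjusted p under 0.05. Across all tested genes 21.2% rose and 21.1% fell. The median member changed by 0.68 on the log2 scale, against 0.03 for all tested genes. In 51 members all 4 fasted libraries lay above all 4 fed libraries and in 6 all lay below, where 31.8% and 31.6% of all tested genes did so. Scaled by library totals only, all genes shifted upward by a median of 0.20, 67.9% rather than 50.2% of the calls over all genes were rises, and 49 members rose and 4 fell. The filter removed nlp-22, nlp-23 and nlp-32, which stayed under 0.2 CPM in every library.

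**Figure D1:**
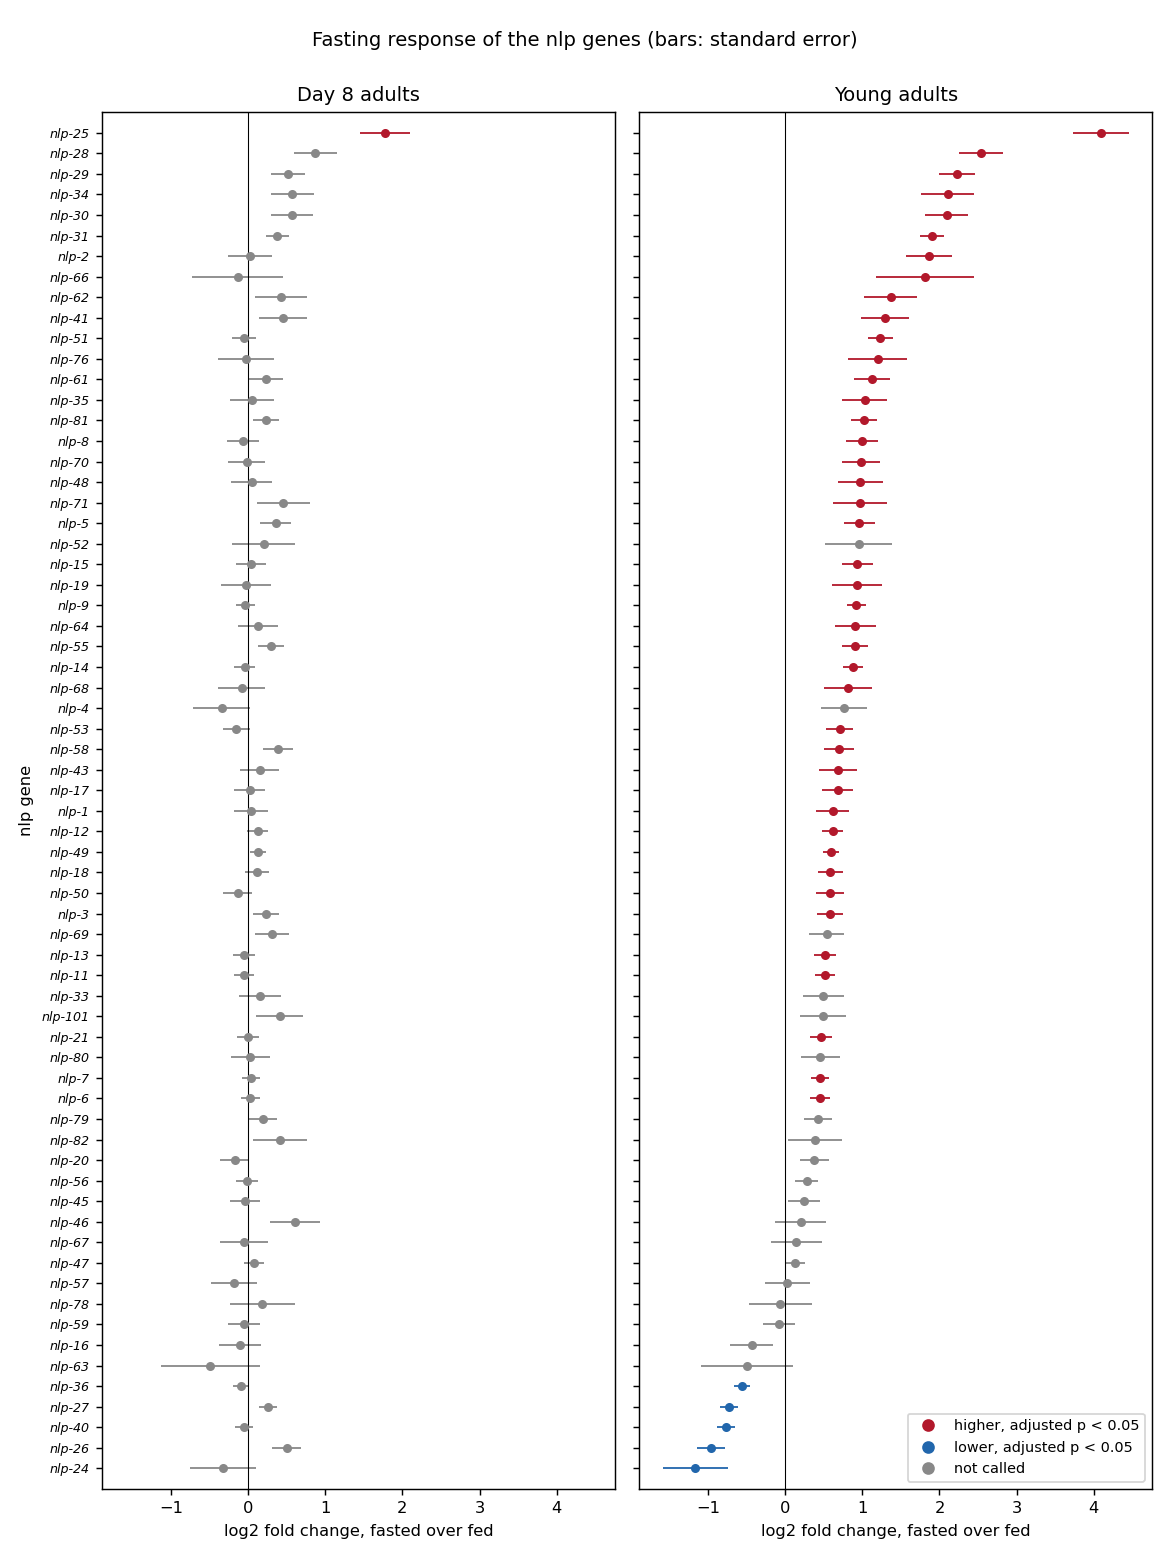
Log2 fold change of fasted over fed worms (x axis) for 66 nlp genes (y axis, ordered by the young response), day 8 adults on the left and young adults on the right, with standard errors from the fit; nlp-39 and nlp-60, at or near 0 counts in young fed worms, are left out. In young adults the values run from -1.16 for nlp-24 to 4.09 for nlp-25, while at day 8 nlp-25 is the only gene past the threshold.

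Leaving aside nlp-39 and nlp-60, which were near 0 counts in young fed worms, the 6 largest rises and the 2 largest falls were in the YGGW-type group, where 6 of 10 tested members rose and 3 fell. A run of 6 of these genes lies within 10946 bp of chromosome V (3978825 to 3989770, WBcel235), in the order nlp-34, nlp-31, nlp-30, nlp-29, nlp-28 and nlp-27, with no other annotated gene in the gaps. The first 5 rose together. For nlp-29 the CPM was 21.2, 20.3, 19.9 and 18.2 in young fasted libraries and 4.86, 2.97, 3.70 and 5.53 in young fed libraries. Every fasted library was above every fed one, and the log2 fold change was 2.22 ± 0.23 (SE, adjusted p = 1.33e-06).

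The adjacent nlp-28 reached 42.5, 40.3, 43.6 and 42.8 CPM in young fasted libraries, against 6.79, 7.17, 7.54 and 7.66 CPM in young fed libraries. That was the second largest rise of the group at 2.54 ± 0.29 (adjusted p = 2.99e-06), and it made nlp-28 the family's most abundant transcript per length in young fasted worms (126.4 CPM per kb of exon). The antimicrobial gene nlp-31 rose by 1.91 ± 0.16, with 18.5 to 20.8 CPM in young fasted and 4.67 to 5.46 CPM in young fed libraries. Its neighbours nlp-30 and nlp-34 were scarcer, at 2.59 to 3.496 and 1.40 to 2.91 CPM in young fasted libraries, against 0.513 to 0.903 and 0.288 to 0.755 CPM in young fed libraries. They rose by 2.09 ± 0.28 and 2.10 ± 0.34.

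At the end of the run the direction turned. Only 1061 bp separate nlp-28 from nlp-27, on the same strand, yet nlp-27 had 29.6, 28.3, 30.8 and 31 CPM in young fasted libraries against 48.3, 48.9, 52.2 and 48.98 CPM in young fed libraries. The groups did not overlap, and nlp-27 fell by 0.73 ± 0.12 on the log2 scale (adjusted p = 0.00011). These genes resemble each other, and how reads that match more than 1 of them were counted is not given in the sources used here.

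**Figure D2:**
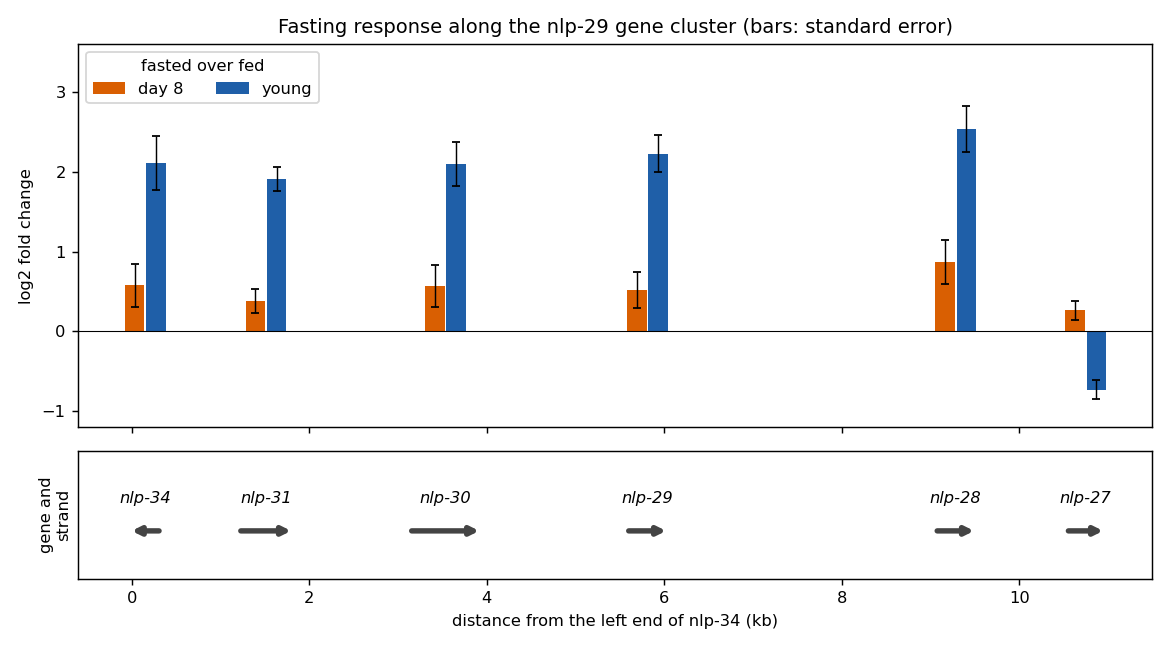
Log2 fold change of fasted over fed worms (y axis, upper part) for the 6 clustered nlp genes of chromosome V against distance in kb from the left end of nlp-34 (x axis), day 8 bars left of young bars, with standard errors; arrows give each gene's extent and strand. In young adults nlp-34, nlp-31, nlp-30, nlp-29 and nlp-28 lie between 1.91 and 2.54 and nlp-27 lies at -0.73.

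A second pair on chromosome V also split. The coding genes nlp-25 and nlp-26 lie 5041 bp apart on the same strand, with 1 other annotated gene between them. In nlp-25 the CPM was 8.04, 9.17, 7.57 and 9.36 in young fasted libraries and 0.432, 0.360, 0.365 and 0.853 in young fed libraries. No other tested member outside those near 0 counts rose as far, with a log2 fold change of 4.09 ± 0.37 (adjusted p = 2.25e-07). In nlp-26 the CPM was 9.28, 8.43, 8.70 and 10.3 in young fasted libraries and 17.5, 18.2, 16.5 and 19.2 in young fed libraries, a fall of 0.96 ± 0.18 (adjusted p = 0.000492).

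The group's remaining genes behaved differently again. The opioid-like peptide gene nlp-24, known for stimulating feeding in starved worms, had 24.7, 26.2, 24.9 and 25.6 CPM in young fasted libraries and 57.0, 55.8, 55.7 and 58.5 CPM in young fed libraries. These groups were far apart, and the log2 fold change was -1.16 ± 0.42 (adjusted p = 0.0371). The call was the least settled of the 5 falls: the adjusted p lay between 0.0639 and 0.0773 without any 1 of the 8 young libraries, at 0.0632 with upper quartile scaling, at 0.125 with library totals only and at 0.0538 with no filter, while a fit to the young libraries alone gave 1.72e-14. Its spread in the 16-library fit includes day 8 libraries that ranged from 1.23 to 7.38 CPM. In nlp-33 all young fasted libraries (16.6 to 18.2 CPM) were above all young fed libraries (10.8 to 14.1 CPM), but the adjusted p was 0.147. It was 9.06e-06 in the fit to the young libraries alone. Exons of nlp-24 and nlp-26 overlap a gene on the other strand by 24 and 29 bp, and whether counting used strand is not given in the sources used here.

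**Figure D3:**
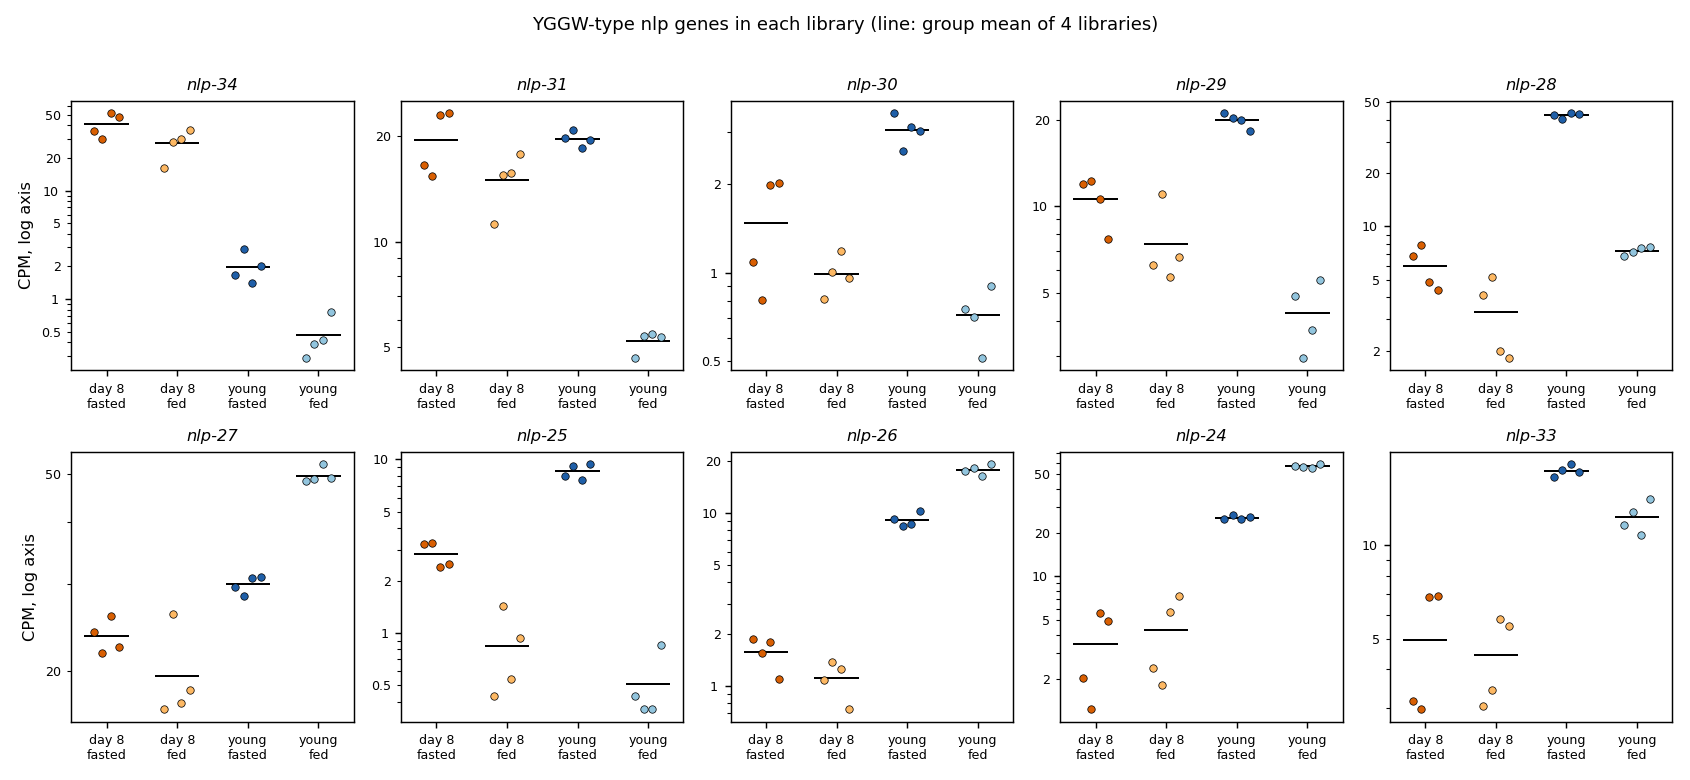
CPM on log axes (y) of 10 YGGW-type nlp genes in each library, by group (x: day 8 fasted, day 8 fed, young fasted, young fed); points are libraries and lines are group means. In nlp-25, nlp-28, nlp-29, nlp-30, nlp-31 and nlp-34 the young fasted libraries lie above the young fed ones without overlap, and in nlp-24, nlp-26 and nlp-27 they lie below.

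Among the numbered genes nlp-1 to nlp-23, many of which encode peptides with known behavioural roles, 17 of 20 tested members rose, none fell at an adjusted or unadjusted p under 0.05 or in DESeq2, and the median was 0.62. Besides nlp-20 below, those that did not pass were nlp-4 (0.76 ± 0.30, adjusted p = 0.0522) and nlp-16 (-0.43 ± 0.28, adjusted p = 0.216), whose 4 young fasted libraries (7.90 to 9.18 CPM) were all below the young fed ones (11.2 to 12.2 CPM). Sleep-promoting genes of the ALA neuron were among those that rose. In nlp-8, the CPM was 12.6, 12.5, 13.6 and 13.7 in young fasted libraries and 6.36, 5.83, 6.97 and 6.99 in young fed libraries, a log2 fold change of 1.00 ± 0.21 (adjusted p = 0.00126). The orcokinin-type gene nlp-14 had 22.5, 19.03, 22.3 and 22.4 CPM in young fasted libraries against 12.4, 10.4, 12.8 and 11.4 CPM in young fed libraries and rose by 0.88 ± 0.13. Its relative nlp-15 rose by 0.94 ± 0.20. In each of these 3 genes the fasted libraries stood clear of the fed ones. Another sleep peptide gene, nlp-22, had no count in any young fasted library and 1 count among the young fed libraries, so nothing can be said of its response.

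Peptides with opposed actions on egg laying moved together. The gene nlp-3, whose peptides are released by the HSN motor neurons and stimulate egg laying, had 6.92 to 8.32 CPM in young fasted libraries and 4.43 to 5.56 CPM in young fed libraries. It rose by 0.58 ± 0.17 (adjusted p = 0.0134). The gene nlp-7, whose peptides slow egg laying, had 5.73 to 7.22 CPM in young fasted libraries and 4.18 to 5.00 CPM in young fed libraries and rose by 0.45 ± 0.12 (adjusted p = 0.00693).

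The remaining genes with studied roles are given singly. The cholecystokinin-like gene nlp-12, made in the DVA stretch-sensing neuron, had 5.50, 4.99, 5.66 and 5.45 CPM in young fasted libraries and 3.37, 3.82, 3.90 and 3.00 CPM in young fed libraries, a change of 0.61 ± 0.14 (adjusted p = 0.00226). The arousal peptide gene nlp-49 rose by 0.60 ± 0.10, with 27.6 to 29.8 CPM in young fasted and 16.4 to 20.99 CPM in young fed libraries. In nlp-9 the rise was 0.92 ± 0.12 (adjusted p = 1.79e-05), from libraries at 11.0 to 12.6 CPM in young fasted and 5.71 to 7.26 CPM in young fed worms. The olfactory neuron gene nlp-1 rose by 0.62 ± 0.22 (adjusted p = 0.0318), but its adjusted p was 0.0569 to 0.0868 when any 1 of young fed libraries 1, 3 and 4 or young fasted libraries 2, 3 and 4 was left out. For nlp-18 the rise was 0.59 ± 0.16. For nlp-20 the libraries did not overlap (9.56 to 10.4 CPM in young fasted, 7.35 to 7.89 CPM in young fed worms), and the change of 0.38 ± 0.19 had an adjusted p of 0.113.

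Of the 14 tested genes with studied behavioural roles 11 rose, nlp-20 did not pass, and nlp-24 above and nlp-40 fell. The gene nlp-40 encodes a peptide that is secreted by the intestine and times the enteric muscle contraction of defecation. It had 54.6, 54.2, 53.5 and 55.3 CPM in young fasted libraries against 89.9, 94.9, 91.99 and 94.4 CPM in young fed libraries. The fasted libraries were all below the fed ones, and nlp-40 fell by 0.77 ± 0.12 (adjusted p = 6.1e-05). The intestine markers did not move 1 way in the same worms: of 9 tested, 5 rose and 2 fell. Their summed level was 954.1 to 988.8 CPM in young fasted and 1490 to 1578 CPM in young fed libraries, but without the actin gene act-5 (70.58 to 75.63 and 768.4 to 824.5 CPM) it was 882.3 to 917.3 CPM in young fasted and 721.5 to 761.9 CPM in young fed libraries. The part of gut RNA in the fall of nlp-40 was not tested.

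**Figure D4:**
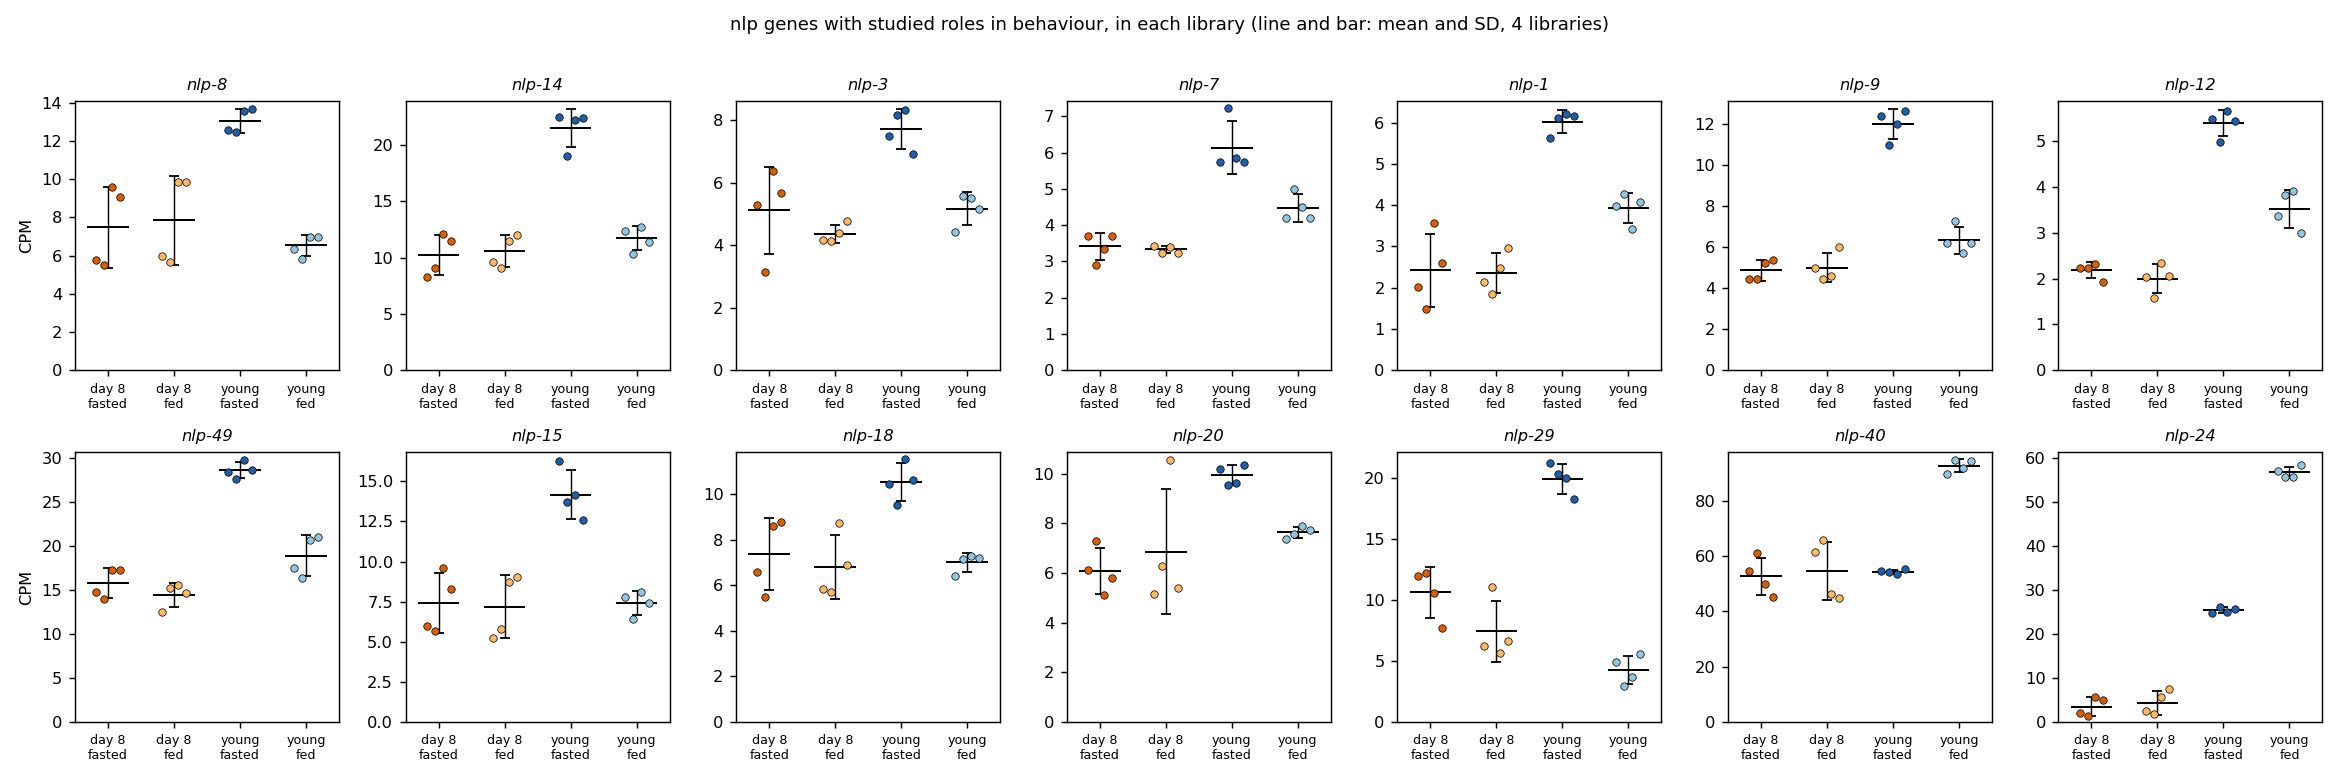
CPM (y) of the 14 tested nlp genes with studied behavioural roles in each library, by group (x: day 8 fasted, day 8 fed, young fasted, young fed); points are libraries, lines means and bars SD of 4 libraries. In 12 of the panels the young fasted libraries lie above the young fed ones without overlap, and in nlp-40 and nlp-24 they lie below.

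Among the 38 genes numbered 35 and above, few of which have a known role, 21 rose, 2 fell and 15 did not pass, with a median of 0.69. The second fall, besides nlp-40, was in nlp-36, with 23.2 to 26.6 CPM in young fasted and 34.6 to 39.3 CPM in young fed libraries and a log2 fold change of -0.56 ± 0.10 (adjusted p = 0.00033). Its exons overlap dars-1 on the other strand by 11 bp. The largest rises with at least 1 CPM in fasted worms were nlp-66 (1.81 ± 0.64, adjusted p = 0.032), nlp-41 (1.29 ± 0.31), nlp-51 (1.23 ± 0.16), nlp-35 (1.03 ± 0.29) and nlp-81 (1.02 ± 0.17). For nlp-66 the adjusted p lay between 0.0527 and 0.0863 without any 1 of the 4 young fed libraries or without young fasted library 1 or 4. On chromosome X, nlp-2, whose RPamide peptides are linked to wakefulness, rose by 1.86 ± 0.30 (2.78 to 3.85 CPM in young fasted and 0.811 to 1.07 CPM in young fed libraries). Of its 3 neighbours within that stretch, nlp-45 had a change of 0.25 ± 0.21 (adjusted p = 0.349), and nlp-22 and nlp-23 were near 0 counts and not tested.

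At the low end, nlp-39 had no count in any young fed library and 25 counts over the young fasted libraries (0.185, 0.151, 0.0272 and 0.0567 CPM). The young fasted mean of 0.105 CPM is 2.32 times a floor of 3 counts per library in young fed worms. This bound is for the mean only, since young fasted library 3 held 2 counts, itself under that floor. For nlp-60 the young fasted libraries held 26 counts and the young fed libraries 2, a ratio of 13.5 (95% interval 3.39 to 117.6, which covers counting error only).

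Summed over the 71 genes, the family reached 548.6 to 561.4 CPM in young fasted and 471.3 to 486.8 CPM in young fed libraries. Per kb of exon the top 5 in young fed worms were nlp-27 (156.9 CPM per kb), nlp-24 (150.6), nlp-40 (129.9), nlp-36 (103.8) and nlp-26 (45.7), and these 5 are the members that fell. In young fasted worms the order was nlp-28 (126.4 CPM per kb), nlp-27 (94.7), nlp-40 (76.2), nlp-36 (70.4) and nlp-24 (67.2). Members at 10 CPM or more numbered 18 in young fasted and 10 in young fed worms.

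Genes for the making, release and reception of peptides were counted in the same way, against the 21.2% and 21.1% of all tested genes given above. Of 13 processing enzymes, 8 rose in young fasted worms and none fell (1 was lower at an unadjusted p under 0.05), with a median of 0.47. The furin-like protease gene kpc-1 had 85.6 to 90.2 CPM in young fasted and 15.5 to 17.3 CPM in young fed libraries and rose by 2.40 ± 0.17. The convertase gene egl-3, the main neuropeptide-cutting enzyme, rose by 0.77 ± 0.09 and the carboxypeptidase gene egl-21 by 0.62 ± 0.09. Of 16 dense core vesicle and release genes, 4 rose and 1 fell, a share of rises close to that of all genes. The vesicle membrane gene ida-1 rose by 1.09 ± 0.18, unc-108 rose by 0.32 ± 0.05 and the release gene unc-18 fell by 0.90 ± 0.10. Of 36 tested peptide receptors, 4 rose and 4 fell, both shares below those of all genes, with a median of 0.17. Among them ckr-2, a receptor for NLP-12, rose by 1.29 ± 0.23, with 5.74 to 6.24 CPM in young fasted and 2.19 to 2.72 CPM in young fed libraries, while sprr-2 fell by 1.46 ± 0.16 and egl-6 by 0.87 ± 0.14.

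The 23 genes listed for epidermal defence include, but are not limited to, those that control nlp-29 after infection and wounding. In young fasted worms 11 of them rose and none fell (3 were lower at an unadjusted p under 0.05). Across all tested genes 21.2% rose and 21.1% fell, and the list's median was 0.42. The 3 listed genes with the smallest adjusted p were the phospholipase C genes egl-8 (0.73 ± 0.05) and plc-3 (0.54 ± 0.08) and the STAT gene sta-1 (1.07 ± 0.16). Of 9 tested caenacin genes, a second family of epidermal antimicrobial peptides, 2 rose and 2 fell, both shares close to those of all genes. Among them cnc-3 fell by 1.85 ± 0.17, cnc-8 fell by 0.96 ± 0.12 and cnc-4 rose by 1.69 ± 0.17. Of 30 tested flp genes, another large neuropeptide family, 22 rose and none fell, with a median of 0.57. Peptide families did not all move this way. Of 33 tested insulin-like peptide genes (the ins genes and daf-28), 9 rose and 5 fell, with a median of 0.40.

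Marker lists in the same young worms moved as follows. Of 15 neuron markers 3 rose (egl-3, egl-21 and ida-1, which also belong to the lists above) and 2 fell (unc-119 and snn-1), and the median was 0.09. Their summed level was 747.6 to 770.4 CPM in young fasted against 578.5 to 587.2 CPM in young fed libraries. Most of that gain was in egl-3, egl-21 and ida-1, with means of 191.9, 123.9 and 90.9 CPM in young fasted and 112.8, 80.75 and 42.68 CPM in young fed worms. Of 12 epidermis markers none rose and 1 fell (lin-26), the median was -0.42, and the summed level was 2220 to 2242 CPM in young fasted against 2812 to 3001 CPM in young fed libraries. That sum was mostly the collagen gene col-19, and without it the other 11 summed to 306.1 to 312.7 CPM in young fasted and 280.6 to 295.1 CPM in young fed libraries. No marker of either list was at 0 in a whole group. The part of tissue proportions in the nlp changes was not tested.

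At day 8 the same fast moved 1 of 68 nlp genes past the threshold, against 0.37% of all tested genes. The median member changed by 0.05 and the median of all tested genes by -0.01. Before adjustment 7 members had a p under 0.05, all of them higher in fasted worms and all of the YGGW-type group. The share of all tested genes at that unadjusted threshold is not given here, so the 7 cannot be set against it. DESeq2 also called 1 member. The called gene was nlp-25, with 3.24, 3.29, 2.39 and 2.49 CPM in day 8 fasted libraries and 0.430, 1.42, 0.544 and 0.936 CPM in day 8 fed libraries. The groups did not overlap and the log2 fold change was 1.77 ± 0.33 (adjusted p = 0.0323). Its adjusted p was 0.0231 with a replicate block and 0.461 in a fit to the day 8 libraries alone. When 1 library was left out it was called in 4 of 16 fits, the others giving 0.0504 to 0.0974 (without young fed 1 or 2, any young fasted library, day 8 fed 1, 3 or 4, or day 8 fasted 1, 2 or 3).

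In nlp-28 the day 8 values were 6.77, 7.88, 4.89 and 4.36 CPM in fasted libraries and 4.14, 5.18, 1.99 and 1.82 CPM in fed libraries. Libraries 1 and 2 were high and libraries 3 and 4 low in both feeding states, the groups overlapped, and the change of 0.87 ± 0.28 had an adjusted p of 0.409. Within each numbered pair the fasted library was higher. With a replicate block within each age the adjusted p was 0.00134, and nlp-26 was called too (0.51, adjusted p = 0.0369), which brought the count to 3 members. That fit also called more of all genes, 167 higher and 347 lower, against 27 and 39 in the main fit. Counted by pairs, 5 of the 10 tested YGGW-type genes (nlp-25, nlp-26, nlp-28, nlp-29 and nlp-34) were higher in the fasted library of 4 of 4 pairs, as were 3 of the 58 other tested members and 9.73% of all tested genes. Lower in 4 of 4 pairs were nlp-24, 1 of the 58 others (nlp-8) and 11.3% of all tested genes. Within libraries 1 and 2, and within 3 and 4, libraries with unlike numbers correlated about as well as those with the same number, so these counts rest on a pairing that only the sets bear out. Without day 8 libraries 1 and 2, 5 members were called, and without libraries 3 and 4, 2 were. The gene nlp-28 was among them both times (1.27, adjusted p = 2.44e-06, and 0.64, adjusted p = 0.00381). Calls over all genes grew as well, to 375 higher and 1224 lower without libraries 1 and 2. Without libraries 3 and 4 they were 95 higher and 241 lower.

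None of the 13 processing enzymes, 16 vesicle genes, 36 receptors, 23 epidermal defence genes, 9 caenacin genes, 30 flp genes, 15 neuron markers or 12 epidermis markers passed the adjusted threshold at day 8, in edgeR or in DESeq2. Of 9 intestine markers pgp-3 was lower in day 8 fasted worms (-0.45 ± 0.09, adjusted p = 0.0473), and DESeq2 called 2 lower. Before adjustment in edgeR 2 processing enzymes, 1 flp gene and 1 epidermis marker had p under 0.05.

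The difference between the 2 fasting responses, young minus day 8, was tested in the same fit. It passed for 24 nlp genes, 20 with a higher log2 response in young worms and 4 with a lower one, where 13.4% and 12.6% of all tested genes passed. The median difference over the members was 0.58 and that over all tested genes 0.03. The YGGW-type genes had 6 of the higher and 2 of the lower differences: nlp-25 (2.32 ± 0.47), nlp-29 (1.70 ± 0.32), nlp-28 (1.67 ± 0.39), nlp-31 (1.53 ± 0.21), nlp-34 (1.53 ± 0.43) and nlp-30 (1.52 ± 0.38), with nlp-26 (-1.46 ± 0.26) and nlp-27 (-0.99 ± 0.16) on the other side. In nlp-27 the day 8 libraries did not show the young fall, with 24.04, 21.8, 25.9 and 22.4 CPM in day 8 fasted and 16.8, 26.1, 17.3 and 18.4 CPM in day 8 fed libraries.

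Among the behavioural genes the difference passed for nlp-8 (1.07 ± 0.29), nlp-9 (0.96 ± 0.17), nlp-14 (0.92 ± 0.19), nlp-15 (0.90 ± 0.28), nlp-49 (0.47 ± 0.15) and nlp-40 (-0.72 ± 0.16). For nlp-40 the day 8 values were 45.1 to 61.0 CPM in fasted and 44.7 to 65.7 CPM in fed libraries. The difference for nlp-15 did not pass without young fed library 2, young fasted library 1, day 8 fed library 3 or 4, or day 8 fasted library 1 or 2 (adjusted p 0.0508 to 0.0803), and that for nlp-49 did not pass in 7 of 16 such fits (0.0516 to 0.0772), those without young fed 1 or 2, young fasted 3, day 8 fed 3 or 4, or day 8 fasted 1 or 2. It did not pass for nlp-12 (0.49 ± 0.20, adjusted p = 0.0802) or nlp-3 (0.35 ± 0.24, adjusted p = 0.32). The counts moved with the treatment of the day 8 library sets. With a replicate block within each age 40 members passed as higher and 6 as lower, nlp-12 among them. Without day 8 libraries 1 and 2 the counts were 36 and 5, and without libraries 3 and 4 they were 32 and 5. Calls over all genes grew in these fits too, from 2396 higher and 2254 lower in the main fit. They were 4204 and 4847 with the block, 4519 and 4330 without libraries 1 and 2, and 3646 and 4302 without libraries 3 and 4. Leaving out day 8 fed library 3 alone lowered the count of higher members to 12.

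Age itself was compared within each feeding state. In fed worms 15 nlp genes were higher at day 8, 23 were lower and 30 did not pass, against 30.8% and 34.7% of all tested genes. This split followed the scaling: it was 25 higher and 8 lower when libraries were scaled by their totals only, where 69.6% rather than 47% of all calls were higher, with member medians of -0.15 after TMM, 0.01 after upper quartile scaling and 0.40 by totals, so no direction is given for the family. Without day 8 libraries 1 and 2 it was 26 higher and 18 lower, and without libraries 3 and 4 it was 12 higher and 33 lower. Of the 38 calls of the main fit, 32 were kept without libraries 1 and 2 and 33 without libraries 3 and 4.

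Some members differed with age by far more than the 0.53 by which scaling by totals moved the median of all genes. In nlp-34 the CPM was 16.1, 28.2, 30.2 and 36.0 in day 8 fed libraries and 0.288, 0.389, 0.419 and 0.755 in young fed libraries, a log2 fold change of 5.90 ± 0.36 (adjusted p = 9.97e-10). This made it the first of the family per length in day 8 fed worms, at 104.6 CPM per kb. The gene nlp-39 had 6.54, 5.24, 3.66 and 4.42 CPM in day 8 fed libraries and no count in any young fed library, which is at least 109.8-fold higher at day 8 against the floor of 3 counts per library. Also higher at day 8, some by little more than that shift, were nlp-48 (2.00 ± 0.29), nlp-31 (1.53 ± 0.15), nlp-67 (1.51 ± 0.32), nlp-51 (1.01 ± 0.16), nlp-29 (0.79 ± 0.23), nlp-59 (0.73 ± 0.21) and nlp-56 (0.55 ± 0.15). In nlp-59 day 8 libraries 1 and 2 of both feeding states averaged 8.41 CPM and libraries 3 and 4 5.30 CPM, without overlap. The young fed mean was 4.20 CPM. In nlp-67 the sets differed the other way, at 2.60 and 5.14 CPM, with a young fed mean of 1.38 CPM. The rises of nlp-66 (2.08 ± 0.63), nlp-68 (0.83 ± 0.31) and nlp-2 (0.74 ± 0.29) were lost without day 8 libraries 3 and 4, at 0.07, 0.24 and 0.18. Those of nlp-68 and nlp-2 were also lost in 5 of 16 fits without 1 library, both of them without day 8 fed library 3 or 4 and without young fed library 2 or 3, nlp-68 without young fed library 1 and nlp-2 without young fed library 4.

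The other end held nlp-4, with 0.120, 0.295, 0.362 and 0.171 CPM in day 8 fed libraries and 4.89, 4.64, 4.07 and 3.495 CPM in young fed libraries, a log2 fold change of -4.14 ± 0.35 (adjusted p = 4.57e-08). The YGGW-type genes nlp-26 (-4.0 ± 0.20), nlp-24 (-3.71 ± 0.47), nlp-33 (-1.46 ± 0.27), nlp-27 (-1.34 ± 0.12) and nlp-28 (-1.16 ± 0.28) were lower at day 8 too. So the cluster on chromosome V split by age, with nlp-34, nlp-31 and nlp-29 higher, nlp-28 and nlp-27 lower, and nlp-30 not called (0.47 ± 0.27, adjusted p = 0.145). Lower at day 8 were also nlp-36 (-0.99 ± 0.10), nlp-58 (-0.95 ± 0.20), nlp-12 (-0.82 ± 0.14), nlp-40 (-0.77 ± 0.12), nlp-1 (-0.74 ± 0.22) and nlp-101 (-0.90 ± 0.31). The call for nlp-101 was lost without young fed library 4 or day 8 fed library 4 (adjusted p = 0.0686 and 0.0562). Scaled by totals only, the calls for nlp-58, nlp-12, nlp-1 and nlp-101 were lost.

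Sets of tissue markers were counted by age as well, against the 30.8% higher and 34.7% lower of all tested genes. Of 12 epidermis markers 8 were higher and 2 lower in day 8 fed worms, and the median was 2.64. Their sum without col-19 was 326.4 to 680.4 CPM in day 8 fed and 280.6 to 295.1 CPM in young fed libraries, while col-19 itself had 15.81 to 22.04 CPM in day 8 fed and 2518 to 2720 CPM in young fed libraries. Of 15 neuron markers 3 were higher and 5 lower, both shares below those of all genes. Their sums overlapped, at 532.8 to 643.1 CPM in day 8 fed and 578.5 to 587.2 CPM in young fed libraries. Of 9 intestine markers 1 was higher and 7 lower, with sums of 325.2 to 403.9 CPM in day 8 fed and 1490 to 1578 CPM in young fed libraries, beside the fall of the gut gene nlp-40. All 10 muscle markers were lower (sums of 636 to 1251 CPM in day 8 fed and 13450 to 14200 CPM in young fed libraries), as were 6 of 10 pharynx markers, with 1 higher (148.8 to 266.9 CPM in day 8 fed and 969.2 to 1011 CPM in young fed libraries). The part of these lists in the age differences of the nlp genes was not tested.

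**Figure D5:**
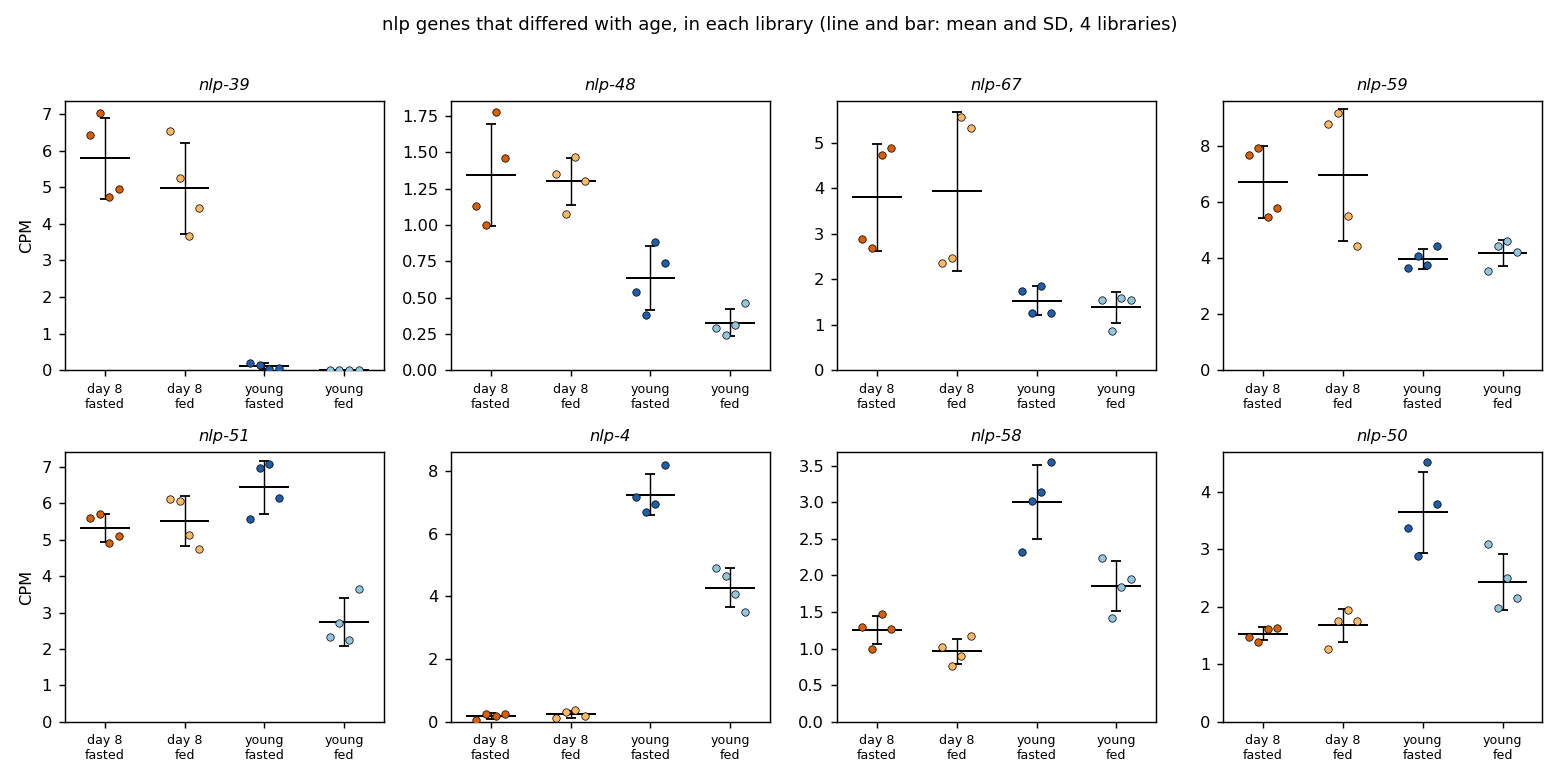
CPM (y) of 8 nlp genes called in the day 8 over young comparison of fed worms, in each library and by group (x: day 8 fasted, day 8 fed, young fasted, young fed); points are libraries, lines means and bars SD of 4 libraries. In nlp-39 the day 8 fed libraries have 3.66 to 6.54 CPM and every young fed library has 0, and in nlp-4 they have 0.120 to 0.362 CPM against 3.495 to 4.89 CPM in young fed libraries.

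In fasted worms the family was lower at day 8: 5 members were higher, 45 lower and 18 did not pass, against 31.2% and 36.9% of all tested genes, and the median was -0.77 against -0.05. With libraries scaled by totals only, 7 members were higher and 23 lower, the median was -0.42, and 61.2% rather than 45.8% of the calls over all genes were higher. The count of lower members was 37 and 51 without day 8 libraries 1 and 2 or 3 and 4. The 5 higher genes were nlp-39 (5.83 ± 0.42), nlp-34 (4.37 ± 0.32), nlp-67 (1.32 ± 0.32), nlp-48 (1.07 ± 0.27) and nlp-59 (0.76 ± 0.21). Of the 20 tested genes numbered 1 to 23, 19 were lower and none higher. The exception was nlp-16, with 5.94 to 12.1 CPM in day 8 fasted and 7.90 to 9.18 CPM in young fasted libraries.

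The largest age differences downward in fasted worms were in nlp-4 (-5.25 ± 0.38), nlp-24 (-2.87 ± 0.45), nlp-28 (-2.83 ± 0.29), nlp-26 (-2.54 ± 0.19), nlp-33 (-1.80 ± 0.27) and nlp-25 (-1.58 ± 0.32). Further down came nlp-41 (-1.53 ± 0.31), nlp-1 (-1.32 ± 0.22), nlp-12 (-1.31 ± 0.14), nlp-9 (-1.30 ± 0.12), nlp-58 (-1.26 ± 0.20) and nlp-50 (-1.25 ± 0.19). In nlp-12 the CPM was 2.24, 2.24, 2.33 and 1.92 in day 8 fasted libraries, below every young fasted library.

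The young fasting comparison and the fed age comparison share the young fed libraries, so their values for 1 gene are not independent and are only set side by side. For nlp-31 they were 1.91 and 1.53, for nlp-51 1.23 and 1.01, for nlp-28 2.54 and -1.16, for nlp-12 0.61 and -0.82, and for nlp-40 -0.77 and -0.77. The fasted age comparison shares the young fasted libraries in the same way: it gave -0.01 for nlp-31, -0.27 for nlp-51 and -0.05 for nlp-40, and none of these 3 passed. In nlp-31 the CPM was 15.3 to 23.2 in day 8 fasted and 18.5 to 20.8 in young fasted libraries.

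Partner genes were compared by age too. Of the 13 processing enzymes 4 were higher and 5 lower in day 8 fed than in young fed worms. Those shares are near the 30.8% and 34.7% of all tested genes. In day 8 fasted against young fasted worms 3 were higher and 9 lower, where 31.2% and 36.9% of all tested genes were. The gene kpc-1 had 31.02 to 50.7 CPM in day 8 fasted and 31.6 to 50.9 CPM in day 8 fed libraries, between the young fasted and young fed values given above. The receptor gene ckr-2 had 1.32 to 2.86 CPM in day 8 fasted and 1.87 to 3.46 CPM in day 8 fed libraries. Its response in young worms exceeded that at day 8 by 1.58 ± 0.33 (adjusted p = 0.00201), and that of kpc-1 by 2.43 ± 0.24 (adjusted p = 1.4e-06).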

How the data were processed

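PolyA RNA of whole worms was sequenced in 16 libraries. The table deposited by the authors holds estimated counts per gene, which are not normalized. The submitters' processing notes name WBcel235 and DESeq, and no source used here names the aligner or counter. Counts were rounded to whole numbers. Gene symbols came from the WBcel235 annotation, release 115, which matched 21714 of 21882 identifiers.

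Groups were compared with edgeR 4.0.16 in R 4.3.3: filterByExpr on the 4 groups (4038 genes removed), TMM scaling, the quasi-likelihood test on all 16 libraries with 1 mean per group, and Benjamini-Hochberg adjustment over 17844 genes, with calls made below 0.05. Each log2 fold change has the fit's standard error. The script was tested on simulated data. Alternatives were RLE, upper quartile and totals-only scaling, no filter, DESeq2 1.42.0, halved counts (counts divided by 2, since even values are in excess), only the groups compared, replicate blocks and leaving out each library. Levels between genes are CPM per kb of summed exon length. Exons of 10 members overlap a gene on the other strand and those of 3 a gene on the same strand, by up to 88 bp.

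Libraries with the same number correlated in their deviations from the group means at day 8 (r 0.329 to 0.564 over genes), and so did crossed pairs within libraries 1 and 2 or 3 and 4 (0.359 to 0.666). In young worms r was -0.005 to 0.04. Day 8 libraries thus fell into 2 sets, 1 with 2 and 3 with 4. The main fit had no block. Same-number blocks were run only as alternatives, because every same-number r at day 8 was above 0.1. They covered the young libraries too. At day 8 crossed numbers within a set correlated as well, and the labels state no pairing.

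The genes and lists were chosen with earlier results of these data known. Genes named with values are, per comparison, the 12 largest rises and falls among called members with at least 1 CPM, the YGGW-type and behavioural genes, and the 5 highest per length. Other lists are given by counts and the 3 smallest adjusted p, except lin-26, unc-119 and snn-1, named after their values were seen. The symbol nlp-10 was in the behavioural list and was matched to no gene.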

Additional observations from a re-analysis of the deposited data

Results flagged for a closer look

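In 10 of 168 groups of 4 libraries, over 42 named members, 1 library lay far from the other 3 of its group. Chance alone flags about 1 in 20 groups. In young fasted worms these were nlp-1 in library 1 (5.63 CPM, low), nlp-7 in library 2 (7.22 CPM, high) and nlp-14 in library 2 (19.03 CPM, low). In young fed worms they were nlp-18 in library 1 (6.40 CPM, low), nlp-31 in library 1 (4.67 CPM, low), nlp-67 in library 2 (0.864 CPM, low), nlp-25 in library 4 (0.853 CPM, high) and nlp-22 in library 4 (0.0164 CPM, high, a single count). In day 8 fasted worms they were nlp-22 in library 4 (0.0600 CPM, high) and nlp-56 in library 2 (2.62 CPM, high).

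The fasting response on the log2 scale differed between young and day 8 worms, by the interaction test of the edgeR fit, for 24 members. Besides the genes given in the report (nlp-25 2.32, nlp-29 1.70, nlp-28 1.67, nlp-31 1.53, nlp-34 1.53, nlp-30 1.52, nlp-26 -1.46, nlp-27 -0.99, nlp-8 1.07, nlp-9 0.96, nlp-14 0.92, nlp-15 0.90, nlp-49 0.47 and nlp-40 -0.72), these were nlp-2 (1.84), nlp-51 (1.28), nlp-70 (1.01), nlp-53 (0.86), nlp-81 (0.78), nlp-13 (0.58), nlp-11 (0.57) and nlp-36 (-0.47). The fitted values for nlp-39 (5.84) and nlp-60 (3.38) rest on 0 and 2 counts in young fed worms and are no measure of size. Of the 24, 15 passed in all 16 fits that left out 1 library. The others were nlp-11, nlp-13, nlp-15, nlp-36, nlp-49, nlp-53, nlp-60, nlp-70 and nlp-81.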

How the results depend on the processing

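The young fasting counts (44 members higher, 5 lower) were 36 to 46 and 4 to 5 over the 16 fits without 1 library, and 39 of the 49 calls remained in every one; nlp-1, nlp-19, nlp-24, nlp-43, nlp-48, nlp-50, nlp-66, nlp-68, nlp-71 and nlp-76 did not. With a replicate block the counts were 44 and 5 in young worms, 1 and 0 at day 8, 23 and 4 for the difference between ages, 15 and 25 for age in fed worms and 5 and 45 in fasted worms. In young worms the counts were 52 and 6 in a fit to the young libraries alone, and 50 and 6 with a replicate block within each age. Over all genes these fits called 6300 and 5800 higher (main 3790) and 5946 and 5821 lower (main 3767). With that block within each age the day 8 count was 3 (main 1) and the difference 40 (main 20). A term for day 8 libraries 3 and 4, in place of the block, gave 3 and 41. Over all genes the higher counts at day 8 were 167 with that block and 224 with that term (main 27). For the difference they were 4204 and 4461 (main 2396). Fitting only the day 8 groups gave 0. Without 1 library the day 8 count was 0 to 2 and the higher difference count 12 to 25; for age the higher counts were 12 to 18 (fed) and 5 (fasted), and the lower counts 18 to 25 and 41 to 47. Alternatives chosen after seeing the data left out day 8 libraries 1 and 2, which gave 5 at day 8, a difference count of 36 and age counts of 26 higher in fed and 8 higher in fasted worms (main 15 and 5), or libraries 3 and 4, which gave 2 and 32. Over all genes these alternatives gave, in that order, 375 and 95 higher at day 8 and 4519 and 3646 higher for the difference. For age in fed worms the higher count was 25 by totals and the lower count (main 23) 14 with upper quartile scaling and 8 by totals, and the lower count in fasted worms (main 45) was 23 by totals. Scaling by totals moved the median of all genes by 0.20, 0.53 and 0.34 for young fasting, age in fed and age in fasted worms. It turned the age change in fed worms for nlp-7 (0.10), nlp-9 (0.20), nlp-13 (0.10), nlp-47 (0.24), nlp-49 (0.15) and nlp-50 (0.0076) and in fasted worms for nlp-40 (0.27). Leaving out libraries 1 and 2 turned nlp-15 (0.38), nlp-16 (0.29) and nlp-18 (0.27) in fed and nlp-31 (0.33) in fasted worms, and leaving out libraries 3 and 4 turned nlp-80 (-0.39) in fed and nlp-16 (-0.45) and nlp-66 (-0.89) in fasted worms. The cause was not tested. Members near 0 counts (nlp-22, nlp-23, nlp-32) give no response at this depth.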
